A study of Mus musculus with 12 samples.

Results

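The genes described here encode the receptors for serotonin, acetylcholine, histamine, noradrenaline and the opioid peptides. Members were all gene symbols of the count tables that begin with Htr, Chrm or Hrh and a digit, with Adra and a digit, with Chrn and a subunit letter, or that are Adrb followed by 1 digit, Oprk1, Oprm1, Oprd1 or Oprl1. The rule used names only and found 52 of 23282 rows. They comprised 9 adrenergic, 5 muscarinic, 16 nicotinic, 4 histamine, 14 serotonin and 4 opioid receptor genes.

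RNAseq had been performed on striatum and cortex of R6/2 mice, a line labelled HD (Huntington's disease) that carries the first exon of human HTT with an expanded CAG repeat, and of WT littermates. The labels place the post-symptomatic age at 13 weeks and the pre-symptomatic age at 8 weeks. Each HD group of 1 region and 1 age had 2 libraries and each WT group had 1. Libraries were made from total RNA with the Lexogen QuantSeq kit, which samples each polyadenylated transcript at its 3′ end, and levels are therefore not divided by gene length. The labels name no sex, no cell sort and no treatment other than age, and do not name the mouse behind each library. With separate mice not stated, p-values set a difference against the spread between these libraries. The main fits treated striatum and cortex libraries as independent, although some may come from 1 mouse.

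Nearly all of these receptors couple to G proteins. Those that act through Gs raise cAMP, those that act through Gi lower it, and those that act through Gq raise intracellular calcium, whereas nicotinic receptors and the serotonin receptor Htr3a are ion channels opened by the transmitter itself. In the striatum, muscarinic receptors answer the local cholinergic interneurons, and opioid receptors answer the enkephalin and dynorphin that the projection neurons themselves make. Hrh3, the histamine H3 receptor, is a Gi-coupled receptor on histamine axons, where it limits histamine release, and on striatal projection neurons and cortical neurons.

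Total counts ranged from 8814386 to 12091201 per library, and levels are given in CPM (counts per 1000000 of a library, with its total multiplied by its TMM factor). A single count was then worth 0.0846 to 0.117 CPM. The ribosomal RNA precursor Rn45s took 10.5% to 15.2% of counts in HD libraries and 4.32% to 5.62% in WT libraries. The labelled regions broadly matched their markers, with 2 libraries that stood apart and a smaller departure given below. In the second pre-symptomatic HD striatum library, 10 markers of striatal projection neurons summed to 2352 CPM, against 7384 to 7941 CPM in the other pre-symptomatic striatum libraries and in post-symptomatic WT striatum. Its 6 thalamus markers summed to 1964 CPM, against 94.1 to 305 CPM elsewhere, and its 8 oligodendrocyte markers to 21006 CPM, against 2374 to 7293 CPM. In the second post-symptomatic HD cortex library, 6 choroid plexus markers summed to 3047 CPM, against 970 CPM in the striatum library just named, 71.2 to 129 CPM in the other 3 post-symptomatic HD libraries and 2.39 to 26.5 CPM in the rest. The only pre-symptomatic WT striatum library held the cortical markers Neurod2, Neurod6 and Tbr1 at 37.3, 16.4 and 26.4 CPM. The other striatum libraries held them at 3.31 to 14.1, 0.107 to 7.61 and 2.14 to 7.53 CPM. Cortical markers Slc17a7, Rorb and Cux2 were not highest in it, and Neurod2 was at 431 to 545 CPM in cortex. The striatal marker Drd2 was at or near 0 in every library, while Drd1 reached 201 to 1308 CPM in striatum. Adora2a and Penk, of the same marker list, were at 26.4 to 252 and 219 to 2182 CPM there. Why Drd2 was low was not tested. Values include the second pre-symptomatic HD striatum library unless its omission is stated, and the calls of each comparison are also given without it.

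Among the receptors that moved with disease stage, 4 were lower in post-symptomatic than in pre-symptomatic HD mice, as described below. Their promoters are shown because these 4 genes changed in the same direction. Each line holds the 150 bases that end just before the most upstream annotated start (RefSeq sequence, build GRCm38.p6, gene strand, 5′ to 3′). Capitals mark matches on either strand to the GC box GGGCGG, the CCAAT box CCAAT, the TATA box TATAAA, the cAMP response element TGACGTCA or its core TGACG, which lies within it.
Hrh3, chr2:180104489-180104638, minus strand: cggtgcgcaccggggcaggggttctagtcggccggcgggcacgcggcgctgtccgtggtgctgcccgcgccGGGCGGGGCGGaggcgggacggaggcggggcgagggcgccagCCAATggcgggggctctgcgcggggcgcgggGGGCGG
Adrb1, chr19:56721967-56722116, plus strand: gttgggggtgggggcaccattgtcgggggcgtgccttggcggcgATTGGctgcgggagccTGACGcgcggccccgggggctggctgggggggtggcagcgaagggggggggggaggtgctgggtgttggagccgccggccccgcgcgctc
Chrm3, chr13:10360848-10360997, minus strand: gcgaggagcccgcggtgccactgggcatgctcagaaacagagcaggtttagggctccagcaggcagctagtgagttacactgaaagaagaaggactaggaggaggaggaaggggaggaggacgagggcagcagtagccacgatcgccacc
Htr2a, chr14:74640690-74640839, plus strand: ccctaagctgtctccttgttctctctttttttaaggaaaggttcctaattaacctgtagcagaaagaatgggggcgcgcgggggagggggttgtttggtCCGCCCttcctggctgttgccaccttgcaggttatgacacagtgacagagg

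The Hrh3 window held 3 GC box matches, of which 2 overlap, and 1 CCAAT box, and 84% of its bases were G or C. The Adrb1 window held 1 CCAAT box and 1 cAMP response element core with 78.7% G or C. The Htr2a window held 1 GC box with 52.7% G or C, and the Chrm3 window held none of these letters with 60.7% G or C. Over 15757 promoter windows cut by the same rule, 35.2% held a GC box, 27.7% a CCAAT box, 15.3% the cAMP response element core, 1.75% the whole element and 6.82% a TATA box, and the median was 56% G or C. No motif was found in all 4 windows, and a match here describes letters only.

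The receptors spanned a wide range of levels, and many were too low to read. In the edgeR fit of 12 libraries, 38 members passed the filter on low counts (a minimum count of 10 in enough libraries), 10 fell under it and 4 had no count in any library. Those with no count were Chrnd and Chrng, subunits of the muscle nicotinic receptor, Hrh4, the histamine receptor of blood cells, and Htr3b. For them, a count of 0 allows a level of up to 0.254 to 0.351 CPM per library (3 counts, counting error only). Those under the filter were Chrna5, Chrna6, Chrna7, Chrna9, Chrna10, Chrnb4, Chrne, Htr1b, Htr2b and Htr5b, none of which exceeded 12 counts in any library. Changes in these 14 genes were not detectable at these counts, which does not show that the receptors are absent. Whether depth, the counting rule or the level itself set these counts was not tested.

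A further 14 of the 38 members that passed had a median count under 10, so that most libraries held only a few reads. They included Adra2b, Adrb3, Chrm5, Chrna2, Chrna3, Chrnb1, Chrnb3, Hrh2, Htr2a, Htr3a, Htr4, Oprd1 and Oprm1. The µ and δ opioid receptor genes Oprm1 and Oprd1 therefore carried little information, with medians of 9.5 and 8.5 counts. That left 24 of 52 receptor genes with a median of 10 counts or more. The mean level over libraries was 10 CPM or more for 13 members, between 1 and 10 CPM for 16 and under 1 CPM for 23.

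**Figure D1:**
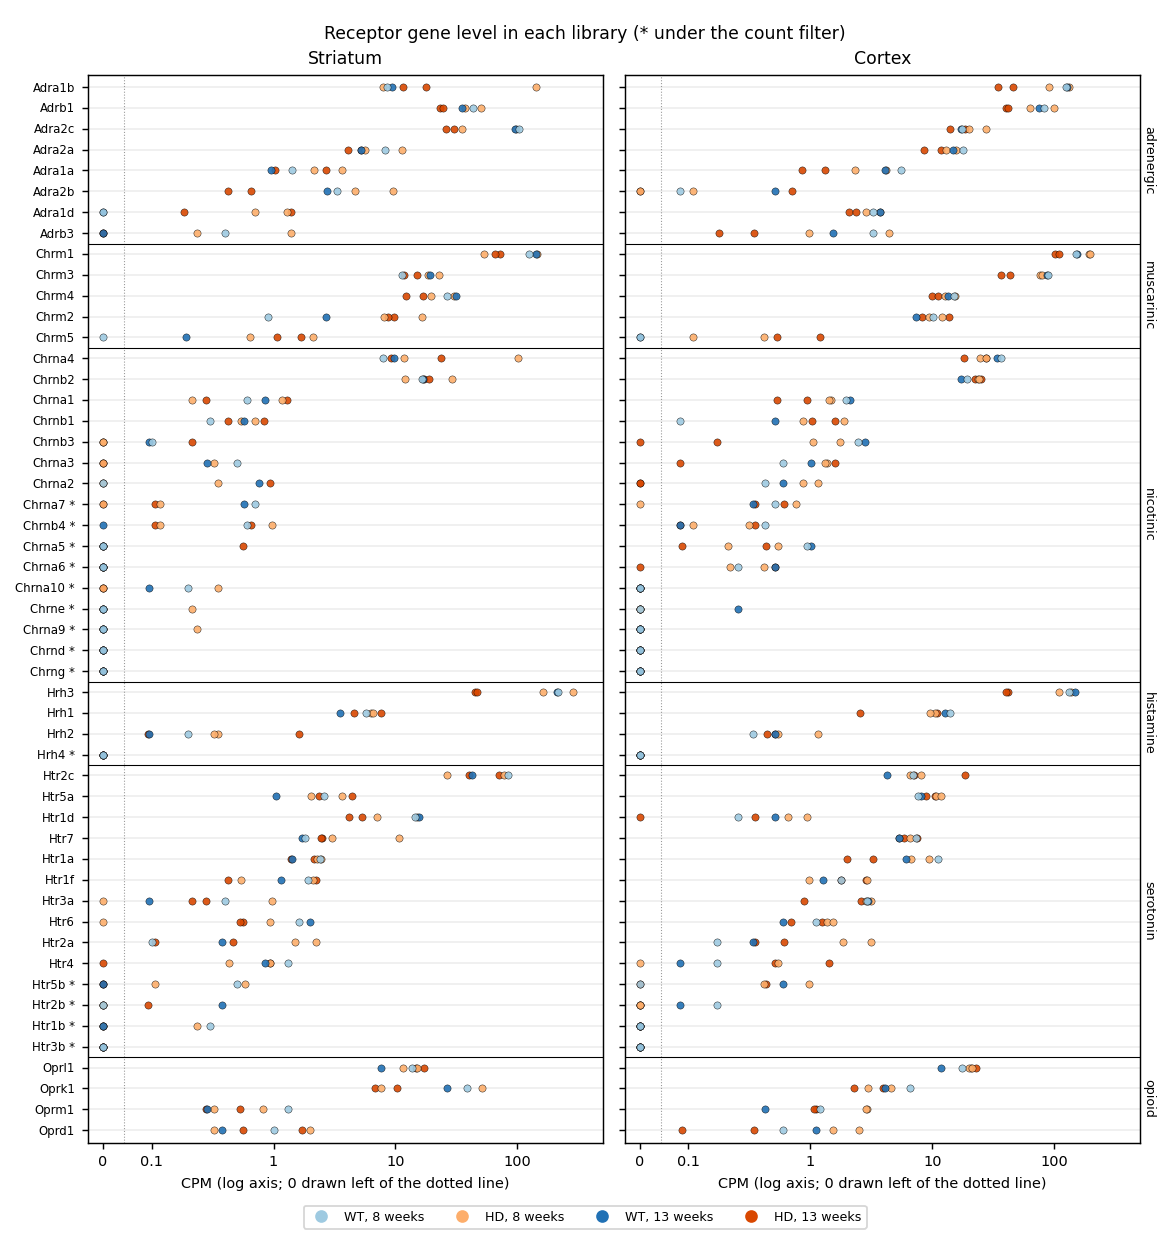
Level of the receptor genes in striatum (left) and cortex (right) in CPM on a log axis, 1 point per library, coloured by genotype and age, with 0 drawn left of the dotted line and an asterisk on the 14 genes under the count filter or without counts. Hrh3 and Chrm1 have the highest means, and most nicotinic subunits lie near 0 to 1 CPM.

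Hrh3 and Chrm1, the main Gq-coupled muscarinic receptor of the forebrain, were the most abundant, with means of 131 and 125 CPM over the 12 libraries. Hrh3 made up 78.5% to 98.3% of the summed histamine receptor level in each library, and Hrh1, the Gq-coupled H1 receptor, ranged from 2.56 to 13.8 CPM. Among adrenergic receptors Adra1b and Adrb1 led, with means of 62.5 and 51.3 CPM. Among nicotinic subunits Chrna4 and Chrnb2, which together form the main high-affinity nicotinic receptor of the brain, had means of 27.7 and 20.2 CPM, and no other subunit exceeded 2.79 CPM in any library. Htr2c, a Gq-coupled serotonin receptor, had a mean of 32.6 CPM and was followed by Htr5a at 6.14 CPM. The nociceptin receptor Oprl1 and the κ opioid receptor Oprk1 had means of 16.2 and 13.8 CPM. In the order of levels within a class, the ranges over libraries of the first and second genes overlapped in all classes but 1, histamine.

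The summed CPM of all members was lowest in post-symptomatic HD mice. It was 375 and 363 CPM in their striatum and 435 and 451 CPM in their cortex. In the other 8 libraries it lay between 690 and 858 CPM, so the ranges did not overlap. A lower receptor level in bulk tissue can come from fewer cells of a type or from less RNA per cell, which cannot be told apart here.

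By class, the histamine receptor sum separated post-symptomatic HD mice most clearly. It was 43.2 to 52.9 CPM in their 4 libraries and 119 to 292 CPM in the other 8. The adrenergic sum was 69.3 and 80.6 CPM in their striatum, against 148 to 253 CPM in the other striatum libraries, and 102 and 122 CPM in their cortex, against 234 to 254 CPM.

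The muscarinic sum was 162 and 172 CPM in post-symptomatic HD cortex, against 261 to 300 CPM in the other cortex libraries. In striatum it was 108 and 107 CPM, against 164 to 207 CPM, except for the second pre-symptomatic HD library at 109 CPM. The nicotinic, serotonin and opioid sums overlapped between post-symptomatic HD mice and the rest in striatum and in cortex. For the opioid sum in striatum, the overlap rested on the second pre-symptomatic HD library at 23.3 CPM. Post-symptomatic HD striatum was at 26.0 and 26.2 CPM and the remaining striatum libraries at 34.7 to 65.6 CPM. For the nicotinic sum, the single high value was 133 CPM in the second pre-symptomatic HD striatum library, where the others ranged from 26.9 to 63.6 CPM over both regions.

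**Figure D2:**
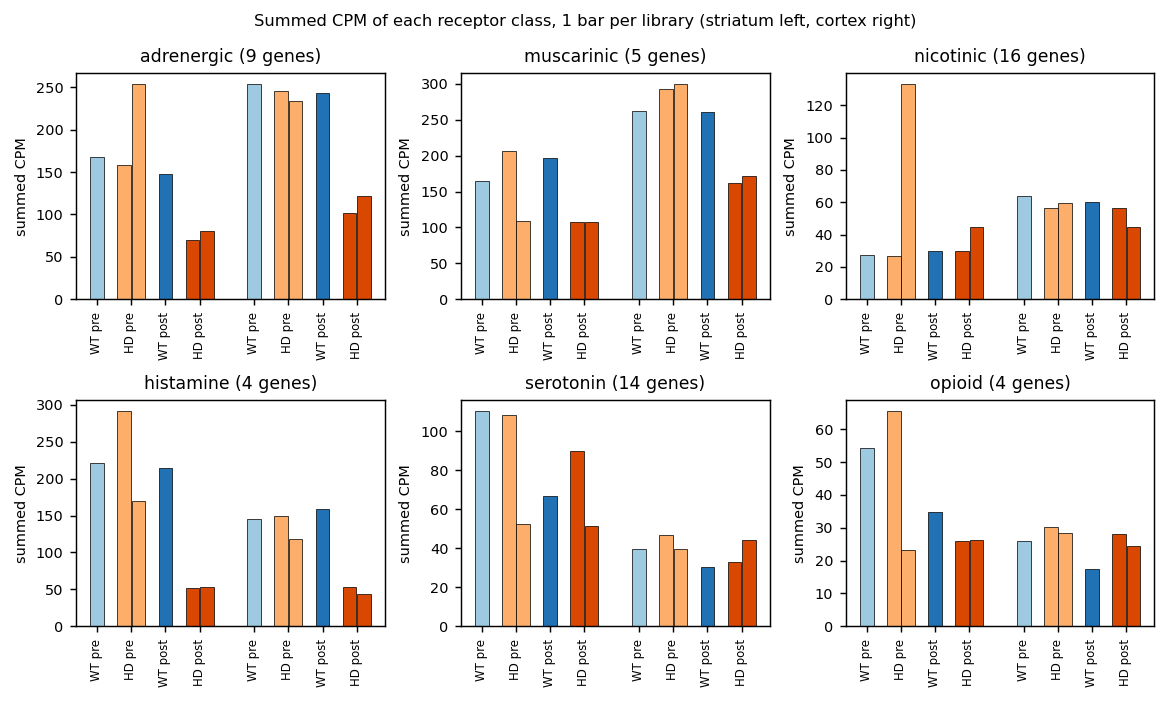
Summed CPM of each receptor class, 1 bar per library, striatum on the left of each panel and cortex on the right, coloured by genotype and age. The 4 post-symptomatic HD bars of the histamine panel lie between 43.2 and 52.9 CPM, and the second pre-symptomatic HD striatum library stands apart in the nicotinic panel.

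Post-symptomatic HD mice were first compared with pre-symptomatic HD mice in a fit to the 8 HD libraries that allowed for the region. This addresses the change around symptom onset, although the ages also differ by 5 weeks, and 31 members passed the filter of this fit. Hrh3, Adrb1, Chrm3 and Htr2a were lower and no member was higher, which is 4 of 31, where 6.45% of all 13944 genes tested were called in either direction and 4.53% were lower (edgeR quasi-likelihood test, Benjamini-Hochberg adjusted p under 0.05). The median log2 fold change of the 31 members was -0.68, against 0.00232 over all genes tested, and 26 of the 31 estimates were negative. At an unadjusted p under 0.05 there were 11 members, where 22.6% of all genes were under it. With libraries scaled by total count alone, a choice made after the data were seen, the same number of members was lower and the member median was -0.47, but the median of all genes moved to 0.21. The share of called genes that were higher moved from 29.9% to 74.9%, so changes are relative to the scaling. When the second pre-symptomatic HD striatum library was left out, Chrm1 and Adra2c were also lower, giving 6 members, with 10.6% of all genes called. Omitting the first such library instead gave 5 members (Hrh3, Adrb1, Chrm3, Adra1b and Adrb3, all lower), with 10.3% of genes called.

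Hrh3 (chr2:180099465-180104488, minus strand) had the smallest adjusted p of the members. In pre-symptomatic HD mice it stood at 285 and 163 CPM in striatum and 137 and 109 CPM in cortex. In post-symptomatic HD mice it stood at 44.5 and 46.7 CPM in striatum and 41.5 and 40.2 CPM in cortex. In both regions all post-symptomatic libraries were below all pre-symptomatic ones, and the 4 post-symptomatic values were closely grouped. The log2 fold change was -1.93 ± 0.20 (SE), which is 3.81-fold lower, with an adjusted p of 0.0018 by edgeR. Omitting the second pre-symptomatic HD striatum library gave -2.02. The transcript of Hrh3 shares exons with the antisense gene Gm17180, and whether counting used strand is not given in the sources used here. Exons on the opposite strand are also shared by Chrnb2 (with the protein-coding gene Adar), Chrm1, Chrm2, Adra1d, Adrb3, Chrna10, Hrh2, Htr1b, Htr2b and Oprm1. The same limit holds for their levels.

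In WT mice Hrh3 was at 216 CPM in striatum (95% exact binomial interval 207 to 225, counting error only) and 131 CPM in cortex (125 to 138) at the pre-symptomatic age. At the post-symptomatic age it was at 211 CPM in striatum (202 to 220) and 146 CPM in cortex (139 to 153). The WT levels at both ages lay within or near the range of pre-symptomatic HD mice.

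Adrb1 (chr19:56722199-56733113, plus strand), the Gs-coupled β1 adrenergic receptor, was at 37.4 and 50.7 CPM in pre-symptomatic HD striatum and at 63.5 and 98.6 CPM in cortex. After onset it was at 23.0 and 24.5 CPM in striatum and at 40.4 and 41.7 CPM in cortex. Both regions separated by stage. The log2 fold change was -0.93 ± 0.17 (SE) with an adjusted p of 0.0138. The call was lost without either post-symptomatic HD cortex library or without the second pre-symptomatic one, with adjusted p-values of 0.0646, 0.063 and 0.0603 by edgeR. Omitting the second pre-symptomatic HD striatum library gave -0.84.

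Chrm3 (chr13:9875486-10360847, minus strand), a Gq-coupled muscarinic receptor, was at 76.5 and 78.8 CPM in pre-symptomatic and at 36.7 and 42.8 CPM in post-symptomatic HD cortex. In striatum it was at 22.8 and 18.6 CPM before and at 11.8 and 15.0 CPM after onset. The stages did not overlap in either region, and levels were several-fold higher in cortex. The log2 fold change was -0.79 ± 0.15 (SE) with an adjusted p of 0.0157. The call was lost on leaving out any one of the 4 HD cortex libraries or the first post-symptomatic striatum library, with adjusted p-values from 0.0534 to 0.0727 by edgeR, and the estimate without the second pre-symptomatic HD striatum library was -0.88.

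Htr2a (chr14:74640840-74709494, plus strand), the Gq-coupled serotonin receptor on which psychedelic drugs act, rested on few reads. It had 19, 14, 30 and 17 counts in the pre-symptomatic HD libraries and 5, 1, 7 and 4 counts in the post-symptomatic ones. The counts did not overlap. The log2 fold change was -2.46 ± 0.60 (SE) with an adjusted p of 0.0406, and of the 8 fits that each left out 1 HD library only the one without the second pre-symptomatic striatum library kept the call. It was also lost with no filter on low counts (adjusted p = 0.052 by edgeR) and by limma voom with the assumed mouse as a random block (adjusted p = 0.0644).

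**Figure D3:**
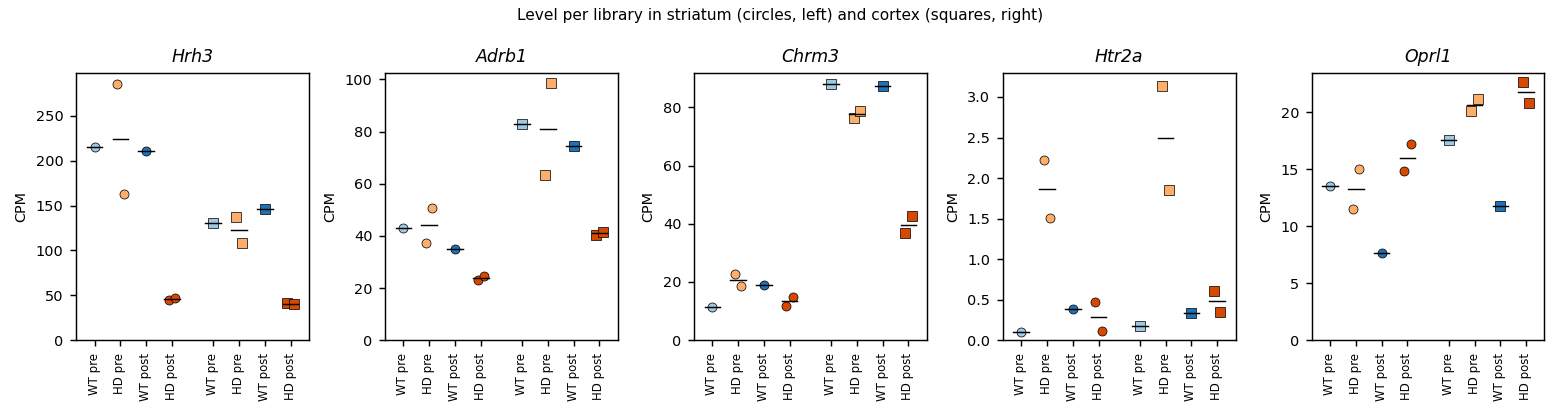
CPM per library of the 5 receptors called between stages or genotypes, with striatum as circles on the left and cortex as squares on the right of each panel, and a line at each group's mean. Post-symptomatic HD libraries lie at 40.2 to 46.7 CPM for Hrh3 in both regions, and Oprl1 is lowest in the post-symptomatic WT libraries.

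The other receptors were compared by class. All 6 adrenergic members tested between HD stages had negative estimates with a median log2 fold change of -0.90, as had 4 of 5 muscarinic members (median -0.59), all 5 nicotinic subunits (median -0.42), both histamine receptors, 6 of 9 serotonin receptors (median -0.61) and 3 of 4 opioid receptors (median -1.05). Of these, only the 4 genes named above passed the test. By coupling, 2 of 9 Gq-coupled, 1 of 13 Gi-coupled and 1 of 3 Gs-coupled members were lower, and 0 of 6 ion channel subunits were, with median log2 fold changes of -0.68, -0.88, -0.61 and -0.63.

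These class medians depended on the second pre-symptomatic HD striatum library. When it was left out, 35 members passed the filter and 26 estimates were negative, with a median of -0.63. The nicotinic subunits then had 4 of 6 negative estimates (median -0.36), with Chrna4 at 0.06 and Chrnb2 at 0.22, both above 0. Serotonin receptors had 7 of 10 (median -0.22), with Htr7, a Gs-coupled receptor, at 0.01, and muscarinic receptors 3 of 5 (median -0.68), with Chrm2, a Gi-coupled autoreceptor, at 0.11. Adrenergic receptors had 6 of 7 (median -0.73), histamine receptors 3 of 3 and opioid receptors 3 of 4 (median -1.34). By coupling the medians became -0.73 for Gq, -1.08 for Gi, -0.04 for Gs and -0.27 for ion channels.

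Hrh3 was the only member lower between HD stages in either region taken alone. In a fit with a mean for each of the 8 groups, its log2 fold change was -2.30 ± 0.26 (SE) in striatum (adjusted p = 0.0137 by edgeR), where 0.238% of all genes were lower. In cortex it was -1.59 ± 0.26 (SE) with an adjusted p of 0.0386 by edgeR, where 0.49% of all genes were lower. Both calls were lost on leaving out any one of the 4 post-symptomatic HD libraries or either pre-symptomatic HD cortex library (adjusted p from 0.0607 to 0.515 by edgeR). The difference between the regions was -0.71 ± 0.36 (SE) with an unadjusted p of 0.0785 by edgeR, which did not pass after adjustment. No gene of 14706 passed the test of that difference (0% called, 519 at an unadjusted p under 0.05).

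Without the second pre-symptomatic HD striatum library, 5 members were lower in striatum (Hrh3, Chrm1, Chrm4, Adra2c and Oprk1, with 7.28% of all genes called) and 5 in cortex (Hrh3, Adrb1, Chrm3, Chrm1 and Adra1b, with 8.33% called). Omitting the first library of that group in its place gave the same 5 members in cortex, with 8.16% of genes called, but Hrh3, Adra1b, Adrb1, Chrna4 and Htr7 in striatum, with 7.48% called. Only Hrh3 was thus lower in striatum under either omission. With the second library left out, 0.992% of all genes passed the test of the difference between regions, among them Hrh3 at -1.05 (adjusted p = 0.0473 by edgeR) and Adra1b at 2.37 (adjusted p = 0.027 by edgeR). Pre-symptomatic HD striatum is then a single library, assumed to vary like the other groups.

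That library set the spread of several receptors. Adra1b, a Gq-coupled α1 adrenergic receptor, was at 142 CPM in it and at 7.84 CPM in the first pre-symptomatic HD striatum library. Chrna4 was at 102 and 11.8 CPM in the same pair. Chrm1 stood at 53.5 against 143 CPM, Adra2c at 34.9 against 97.9 CPM and Oprk1 at 7.64 against 51.3 CPM.

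In all other striatum libraries Adra1b lay between 8.53 and 17.6 CPM and Chrna4 between 7.93 and 23.7 CPM. The high library is the one with 1964 CPM of thalamus markers, and the part of that difference in these receptors was not tested. In cortex, where this library plays no part, Adra1b was at 34.4 and 45.4 CPM in post-symptomatic HD mice and at 90.9 to 132 CPM in the other 4 libraries. The groups did not overlap. Against WT cortex the log2 fold change was -1.66 with an adjusted p of 0.68 in the fit of all libraries and 0.0043 without that striatum library (edgeR).

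Post-symptomatic HD mice were next compared with WT littermates of the same age. This comparison shares the post-symptomatic HD libraries with the one above. Over all 12 libraries with region as a term, Hrh3 and Adrb1 were lower and Oprl1 was higher, which is 3 of 38 members, with 7.36% of 14706 genes called, 4.26% lower and 3.1% higher. The median log2 fold change of the members was -0.34, against 0.0146 over all genes. There was 1 WT library per age and region, so the spread comes mainly from the HD libraries.

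Hrh3 was at 44.5 and 46.7 CPM in HD and 211 CPM in WT striatum, and at 41.5 and 40.2 CPM in HD and 146 CPM in WT cortex. Its log2 fold change was -2.01 ± 0.22 (SE), 4.03-fold lower, with an adjusted p of 0.00101 by edgeR. By region, it was -2.21 ± 0.30 (SE) in striatum (adjusted p = 0.0324 by edgeR), the only member among the 0.476% of genes that were lower there, and this call was lost under the same 6 omissions (adjusted p from 0.106 to 0.223 by edgeR). In cortex it was -1.84 ± 0.30 (SE) with an adjusted p of 0.0806 by edgeR, and 0 of 38 members passed, where 0.0748% of all genes did.

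Adrb1 had a log2 fold change of -0.71 ± 0.18 (SE) with an adjusted p of 0.0354. The HD values of 23.0 and 24.5 CPM in striatum and 40.4 and 41.7 CPM in cortex lay below the WT values of 34.9 and 74.6 CPM. The call was lost without any one of the 4 post-symptomatic HD libraries (adjusted p from 0.0514 to 0.0915 by edgeR), and with libraries scaled by total count alone (adjusted p = 0.0628 by edgeR).

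Oprl1 (chr2:181715016-181720985, plus strand), which responds to nociceptin, was at 14.8 and 17.2 CPM in HD and 7.63 CPM in WT striatum. In cortex it was at 22.7 and 20.8 CPM in HD and 11.8 CPM in WT mice. These WT values were the lowest of their regions, with 13.6 and 17.6 CPM in pre-symptomatic WT striatum and cortex. The log2 fold change was 0.97 ± 0.20 (SE), 1.97-fold higher, with an adjusted p of 0.0139. Between HD stages Oprl1 changed by 0.18 ± 0.16 (SE) with an adjusted p of 0.567.

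Chrm3 and Chrm4, a Gi-coupled muscarinic receptor of striatal projection neurons, did not pass, with log2 fold changes of -0.83 and -0.76 and adjusted p-values of 0.0613 and 0.0779 by edgeR. Without the second pre-symptomatic HD striatum library the calls numbered 7, with Chrm1, Chrm3, Chrm4 and Htr1d lower as well, and 12.5% of all genes called. The same omission gave 7 members in striatum, with 9.87% of genes called. There Hrh3, Chrm1, Chrm4, Adra2c and Oprk1 were lower and Oprl1 and Chrm2 were higher. In cortex it gave 3 members, Hrh3, Chrm3 and Adra1b, all lower, with 5.9% of genes called. Leaving out the first pre-symptomatic HD striatum library, which had no such thalamus signal, gave the same 7 members in striatum and the same 3 in cortex, with 9.79% and 5.79% of genes called, and 3 members (Hrh3, Adrb1 and Oprl1) over both regions, with 8.45% called.

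At the pre-symptomatic age, 1 of 38 members was called, with 2.1% of all genes called and 1.95% higher. It was Htr2a, with 19, 14, 30 and 17 counts in the HD libraries and 1 and 2 counts in WT striatum and cortex. Its log2 fold change was 3.90 ± 0.91 (SE) with an adjusted p of 0.0485. Without the second pre-symptomatic HD striatum library the adjusted p was 0.0493, with 3.04% of genes called, and the call was lost in 11 of 14 alternatives, the omission of any other pre-symptomatic HD library among them (adjusted p up to 0.143 by edgeR). At the post-symptomatic age, Htr2a had 5, 1, 7 and 4 counts in HD libraries and 4 in each WT library, so the high values were those of pre-symptomatic HD mice. Htr2a passed the filter through that group alone, so this call has the limit given for its change between stages.

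Hrh3 at the pre-symptomatic age differed from WT mice by -0.01 ± 0.22 on the log2 scale (adjusted p = 0.992 by edgeR). The HD values of 285 and 163 CPM in striatum lay on either side of the WT value of 216 CPM, and those of 137 and 109 CPM in cortex on either side of 131 CPM. Chrm5, the muscarinic receptor of dopamine neurons, was singled out after its values were seen, with 0 counts in both pre-symptomatic WT libraries, 2 and 0 in the post-symptomatic ones and 1 to 18 in the 8 HD libraries. It did not pass at either age (adjusted p = 0.153 and 0.107 by edgeR).

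The change with age in HD mice was then set against that in WT mice. Hrh3 was the single member called, with a difference in change of -2.00 ± 0.32 (SE) on the log2 scale and an adjusted p of 0.049 by edgeR, where 0.102% of all genes were lower. Without the second pre-symptomatic HD striatum library the difference was -2.09 (adjusted p = 0.00412 by edgeR), Chrm1 was called as well at -1.08 (adjusted p = 0.0139 by edgeR), and 1.44% of genes were called. The Hrh3 call was lost on leaving out any one of the 4 post-symptomatic HD libraries or either pre-symptomatic HD cortex library, with adjusted p-values from 0.0749 to 0.158 by edgeR.

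**Figure D4:**
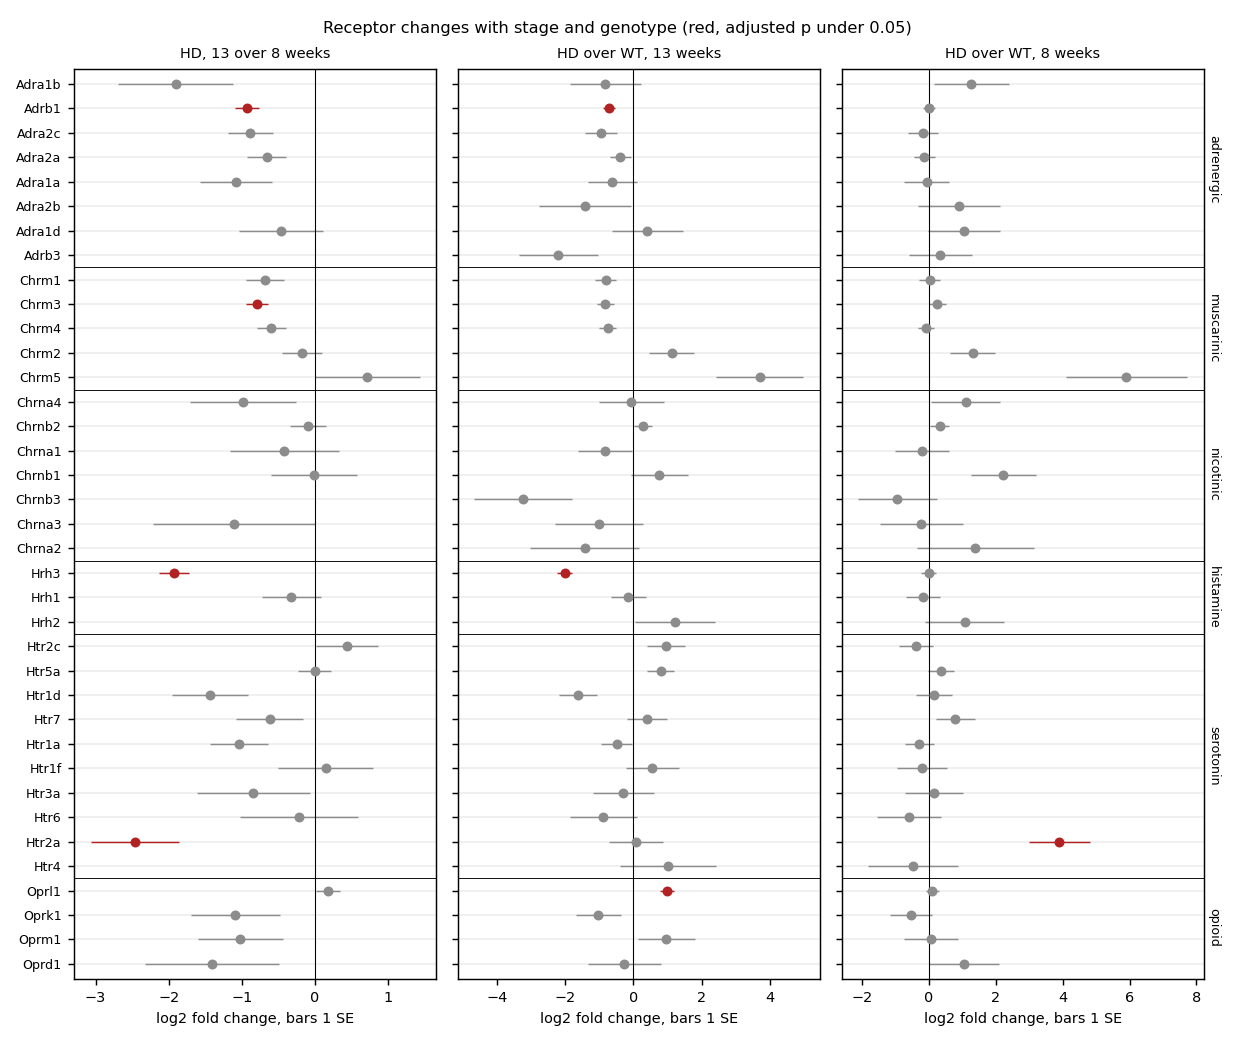
Log2 fold change of receptor genes that passed the filter, with bars of 1 SE, for post-symptomatic over pre-symptomatic HD mice (31 genes), HD over WT at 13 weeks and HD over WT at 8 weeks. Red points passed the test, and Hrh3 lies at -1.93 and -2.01 in the first and second panels and at -0.01 in the third.

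More receptors were called between regions than between stages or genotypes. Of 38 members, 17 differed between striatum and cortex over the 12 libraries, with 20.6% of all genes called. In striatum 7 members were higher, with 8.51% of all genes higher, and 10 were lower, with 12.1% lower. Without the second pre-symptomatic HD striatum library 21 members differed, with 25.4% of genes called. These were the same 17 genes in the same directions and Adra1b (-2.90), Htr7 (-1.45), Chrna4 (-1.20) and Chrm1 (-0.40), all lower in striatum. The estimates of the low-count genes Adrb3 and Htr3a moved most, to -3.72 and -3.58.

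By coupling, 6 of 14 Gi-coupled members were higher and 4 lower in striatum (median log2 fold change -0.11), 1 of 9 Gq-coupled members was higher and 2 were lower, and of 7 Gs-coupled members and 8 ion channel subunits 2 each were lower and 0 higher. Htr1d, which reduces transmitter release at serotonin and other axon endings, was at 4.17 to 15.5 CPM in striatum and at 0 to 0.94 CPM in cortex. The regions did not overlap, and the log2 fold change was 4.52 ± 0.43 (SE, adjusted p = 1.83e-05 by edgeR). Htr2c was at 26.7 to 82.9 CPM in striatum and at 4.23 to 18.6 CPM in cortex (2.78 ± 0.37, adjusted p = 0.000587 by edgeR). Its highest cortex value was in the library with 3047 CPM of choroid plexus markers, a tissue rich in Htr2c. These markers were also higher in the other post-symptomatic HD libraries and in the second pre-symptomatic HD striatum library, as given above, and the part of that tissue was not tested.

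Oprk1, the receptor for dynorphin, was at 6.73 to 51.3 CPM in striatum and 2.29 to 6.54 CPM in cortex (2.37 ± 0.46). Adra2c, a Gi-coupled α2 receptor, was at 26.2 to 102 CPM in striatum and 13.8 to 27.2 CPM in cortex (1.60 ± 0.32). Chrm4 and Hrh3 differed less, by 0.78 ± 0.16 and 0.55 ± 0.15. For Hrh3 the libraries of post-symptomatic HD mice were close in both regions, at 44.5 and 46.7 CPM against 41.5 and 40.2 CPM, whereas every other striatum library exceeded every other cortex library. The Hrh3 call was lost without either pre-symptomatic HD cortex library (adjusted p = 0.056 and 0.0633 by edgeR). Adra2b was also called (3.35 ± 0.97), from 4 to 89 counts in striatum and 0 to 8 in cortex.

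Lower in striatum were receptors of each class but histamine, with Chrnb3 the only nicotinic subunit. Chrm3 was at 11.3 to 22.8 CPM in striatum and 36.7 to 87.9 CPM in cortex (-2.01 ± 0.17, adjusted p = 9.6e-06 by edgeR). The regions did not overlap. The Gi-coupled Htr5a was lower by -1.88 ± 0.26, Htr1a, the Gi-coupled autoreceptor of serotonin neurons that is also found on cortical neurons, by -1.52 ± 0.31, the Gi-coupled Adra2a by -1.06 ± 0.21, Adrb1 by -0.90 ± 0.13 and the Gi-coupled Oprl1 by -0.52 ± 0.13 (log2, SE). Adra1d (-2.54 ± 0.75), Htr3a (-2.95 ± 0.63), Adrb3 (-2.70 ± 0.77) and Chrnb3 (-3.77 ± 1.04) were called from low counts, at most 44 in any library. Chrnb3 and Htr3a reached the minimum count of 10 only in cortex libraries. They passed the filter through the region where they were high, and the limit given for Adra2b holds for them too. The calls of Adra1d, Adra2b, Adrb3 and Chrnb3 were each lost on omitting at least 1 pre-symptomatic HD cortex library, that of Adra1d also without the first striatum library of either HD stage, that of Adra2b also without the first post-symptomatic HD cortex library and that of Adrb3 also without the first pre-symptomatic HD striatum library.

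**Figure D5:**
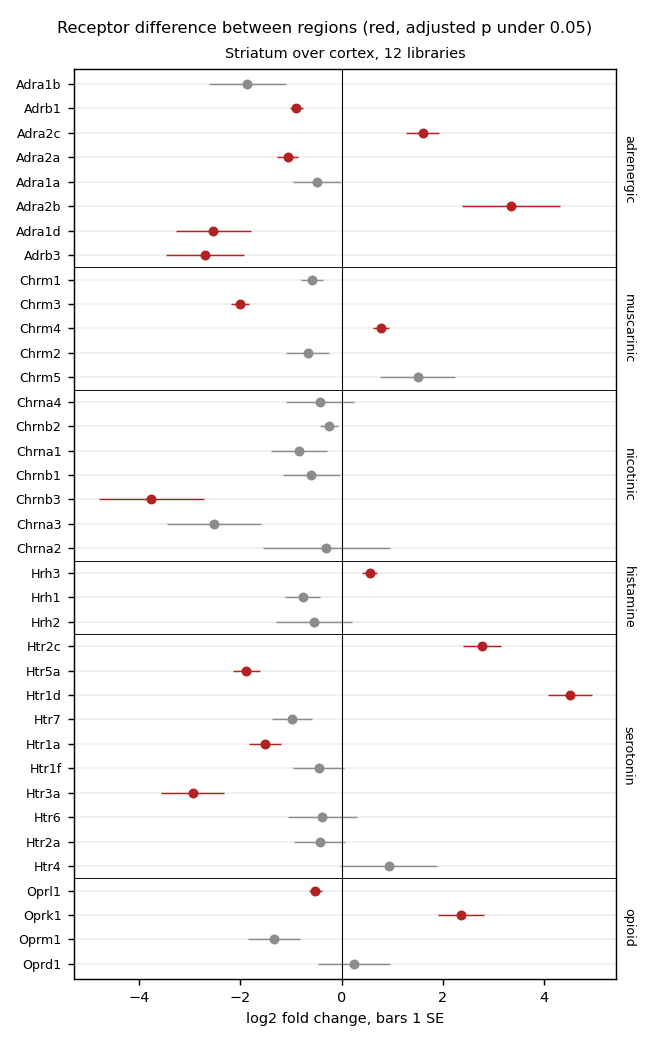
Log2 fold change of striatum over cortex for receptor genes that passed the filter, with bars of 1 SE, over 12 libraries. Red points passed the test, with Htr1d highest at 4.52 and Chrnb3 lowest at -3.77. Both reached the minimum count of 10 only in the region where they were high.

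Genes that make, store and break down the transmitters were taken from fixed lists and tested in the same fits. In those fits 6.45% of all genes were called between HD stages, 7.36% against post-symptomatic WT mice and 2.1% at the pre-symptomatic age. Of 5 acetylcholine genes, 3 were lower in post-symptomatic HD than in WT mice and none between HD stages. Chat, the enzyme that makes acetylcholine, was at 21.4 and 24.6 CPM in HD and at 98.7 CPM in WT striatum. Its log2 fold change was -2.42 ± 0.43 (SE, adjusted p = 0.00806 by edgeR), and those of the vesicular transporter Slc18a3 and the choline transporter Slc5a7 were -2.13 and -2.14. Of 4 opioid peptide precursors, Penk (-2.85 ± 0.45) and Pdyn (-2.74 ± 0.63), the sources of enkephalin and dynorphin, were lower than in WT mice. Penk was also lower between HD stages (-1.81 ± 0.41), and it was at 237 and 219 CPM in post-symptomatic HD and 2182 CPM in WT striatum. In pre-symptomatic HD striatum it was at 1712 CPM in the first library and 470 CPM in the second, and without the second its change between stages was -2.08 (adjusted p = 0.0232 by edgeR).

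None of 4 serotonin, 2 catecholamine and 2 histamine metabolism genes tested passed between stages or against WT mice at either age. Of the 2 histamine genes, Hdc, which makes histamine in hypothalamic neurons, did not exceed 5.68 CPM in any library, whereas Hnmt, which inactivates it, lay between 14.3 and 34.3 CPM.

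Downstream of the receptors, 1 of 19 G protein subunits tested was lower between HD stages, Gnal (-0.76 ± 0.19), the striatal α subunit that activates adenylyl cyclase, and 1 was higher, Gng4 (1.11 ± 0.24). Gnal was at 899 and 434 CPM in the pair of pre-symptomatic HD striatum libraries. None passed against WT mice. Of 7 adenylyl cyclases, Adcy2 (-0.87 ± 0.21) and Adcy9 (-0.85 ± 0.22) were lower in post-symptomatic HD than in WT mice, and none passed between stages. None of 7 receptor kinases and arrestins passed in these comparisons. Of 8 genes that assemble or modulate nicotinic receptors, Lynx1 and Lypd6, both membrane-anchored modulators, were lower between stages (-1.48 ± 0.27 and -0.93 ± 0.21) and against WT mice (-1.31 ± 0.31 and -1.05 ± 0.23), while no nicotinic subunit passed in either comparison. None of the genes of these lists was called at the pre-symptomatic age.

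The list calls also shifted without the second pre-symptomatic HD striatum library. The shares of all genes called then rose to 10.6% between stages, 12.5% against post-symptomatic and 3.04% against pre-symptomatic WT mice. Every call above was kept. Between stages the lower genes then included Chat, Pdyn, Adcy2, Adcy9, Arrb1 and Lypd1, the higher ones Gnai2 and Maoa, and Gnal stood at -0.94 and Gng4 at 0.95. Against post-symptomatic WT mice, Gnal, Gnb5, Arrb1 and Lypd1 were lower as well and Gng2 and Adrbk2 higher. At the pre-symptomatic age Gnal was higher in HD mice (0.76, adjusted p = 0.01 by edgeR).

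Markers of cell types moved with the same groups. Of all genes, 7.36% were called against post-symptomatic WT mice and 6.45% between HD stages. Striatal projection neuron markers summed to 1441 and 1436 CPM in post-symptomatic HD striatum and to 7941 CPM in WT striatum, and 5 of 9 were lower than in WT mice (3 of 9 between stages). Cortical excitatory neuron markers summed to 1409 and 1429 CPM in post-symptomatic HD cortex and 2109 to 2386 CPM in the other 4 cortex libraries, with 0 of 10 called in either comparison. Cholinergic neuron markers summed to 69.1 and 65.5 CPM in post-symptomatic HD and 192 CPM in WT striatum, with 3 of 6 lower. These 3 were Chat, Slc18a3 and Slc5a7, the acetylcholine genes given above, so this is no separate result. In the same libraries Isl1 was at 28.9 and 23.0 against 31.6 CPM and Lhx8 at 6.15 and 3.42 against 10.3 CPM. Gbx2 was at 0.186 and 0.214 against 1.53 CPM. The part of these changes in the lower receptors was not tested.

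Of the other lists, 1 of 7 astrocyte markers was lower and 1 of 5 habenula markers was higher between HD stages, and 1 of 7 habenula and 1 of 7 endothelial and mural markers were higher in post-symptomatic HD than in WT mice. No marker of thalamus, choroid plexus, oligodendrocytes or microglia was called in these 2 comparisons, where 6.45% and 7.36% of all genes were called. At the pre-symptomatic age, 1 marker was called, higher, in the endothelial and mural list, with 2.1% of all genes called. With the second pre-symptomatic HD striatum library omitted, 10.6% of all genes were called between stages and 12.5% against post-symptomatic WT mice. Lower between stages were then 5 of 9 projection neuron, 1 of 10 cortical, 1 of 5 cholinergic, 1 of 5 habenula and 2 of 7 astrocyte markers. Lower against post-symptomatic WT mice were 5 of 9, 2 of 10, 3 of 5, 0 of 6 and 2 of 7, with 1 of 8 oligodendrocyte markers. Higher between stages was 1 of 5 habenula markers. Higher against WT mice were 1 of 6 habenula and 1 of 7 endothelial and mural markers. The higher habenula marker was Pou4f1 in both comparisons (log2 6.25 and 5.58). Counts such as 1 of 10 and 1 of 8 lie near the shares of all genes.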

How the data were processed

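The authors deposited 1 table of raw counts per gene symbol for each of the 12 libraries. The submitters' processing notes name Bowtie2, bedtools and mm10. Versions, annotation, counting rule and use of strand are not given in the sources used here. Of 23282 rows, 4306 had no count and 44 repeated a symbol. Counts were tested in R 4.3.3 with edgeR 4.0.16 (quasi-likelihood test with robust option, TMM factors, low counts removed by filterByExpr at 10, Benjamini-Hochberg adjustment, threshold 0.05) on all genes. The stage fit held the 8 HD libraries and a region term. The genotype fit held all 12 libraries, with 1 mean per combination of genotype and age plus a region term. Single regions used 8 group means. SE is the log2 fold change divided by the root of F. The replicate pairs of HD libraries differed beyond counting noise, with chi-square values of 6.98 to 73.0 per degree of freedom.

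Named were Hrh3, members past the threshold in any comparison, the first and second of each class by mean CPM, members under the filter, and up to 3 called genes per list and direction. Members with calls under an alternative, and Chrm5, Drd2, Hdc and Hnmt, were named after their values were seen. Members and lists were chosen with earlier results of these data known. Alternatives were DESeq2 1.42.0, limma 3.58.1 voom, upper-quartile scaling, other filters, omission of Rn45s or of each HD library, and a replicate block. Gene positions are from GENCODE M21 (GRCm38). Of the members, 1 gene is counted in totals but not reported here by name or plotted singly. Methods were tested on simulated data with the same spread for every gene and no outlying library. That test therefore does not cover libraries that stood apart, as some did here. The paper's statistics name no test for these libraries.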

Additional observations from a re-analysis of the deposited data

Results flagged for a closer look

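The change of Hrh3 with age differed between the genotypes in the main fit. The call was lost in 8 of 15 alternatives, upper-quartile scaling and scaling by library size only among them. The log2 change between the ages was lower in HD than in WT mice by a difference of -2.00 (adjusted p = 0.049 by edgeR). In HD mice the level fell from 285 and 163 to 44.5 and 46.7 CPM in striatum, and in WT mice it was 216 and 211 CPM at the 2 ages. In cortex the level fell from 137 and 109 to 41.5 and 40.2 CPM in HD mice, and it was 131 and 146 CPM in WT mice. The WT side has 1 library per age and region.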

How the results depend on the processing

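Over 42 results and 635 alternative values, 490 were classed as the same. For a gene, this means that direction and side of the threshold were kept. For the number of members called in a comparison, it means only that the number stayed of similar size. Hrh3 stayed lower between HD stages in all 16 alternatives (log2 -2.06 to -1.69) and against post-symptomatic WT mice in all 15 (-2.09 to -1.92), and Oprl1 stayed higher in all 15 (0.92 to 1.06). The number of members called against post-symptomatic WT mice was 6 by DESeq2 (12.3% of all genes called) and 5 by voom with the assumed mouse as a random block (8.19%). At the pre-symptomatic age it was 0 with upper-quartile scaling, without Rn45s, with no filter, with at least 1 CPM in every library, by library size only and by voom (1.53% to 2.76% of genes). For the difference in change with age it was 0 with upper-quartile scaling and by library size only (0.034% and 0.0544% of genes), and between regions it was 11 of 17 tested with at least 1 CPM in every library (22.6%). Between stages in striatum DESeq2 called 2 (2.5%). In cortex it called 3 (3.17%), no filter gave 2 (1.27%), and upper-quartile scaling and library size only gave 0 (0.313% and 0.116%). Against WT mice DESeq2 called 2 in striatum (3.67%) and 2 in cortex (1.43%), where no filter gave 1 (0.443%).

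Leaving out 1 HD library at a time gave 1 to 6 members between stages (1.48% to 10.6% of all genes called), 2 to 7 against post-symptomatic (4.29% to 12.5%) and 0 to 1 against pre-symptomatic WT mice (0.688% to 3.04%), and 0 to 2 for the difference in change (0.0273% to 1.44%). By stage it gave 0 to 5 in striatum (0% to 7.48%), 0 to 5 in cortex (0% to 8.33%) and 0 to 2 for the difference between regions (0% to 1.06%), and 0 to 7 against WT striatum (0% to 9.87%) and 0 to 3 against WT cortex (0% to 5.9%). Hrh3 against pre-symptomatic WT mice changed sign, from -0.01 to 0.0848 and 0.0998, without the second pre-symptomatic HD striatum or cortex library. Its leave-one-out values ran from -0.257 to 0.0998, and none passed the test. The cause of these moves was not tested.

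Whether same-numbered libraries share a mouse is not labelled. Their deviations from group means correlated at 0.205 and 0.117 between regions and at 0.27 and 0.0538 between ages. With a replicate block the calls numbered 4 between stages and 18 between regions. Low counts limited 28 of 52 genes, those under the filter or with a median under 10 counts, and why they were low was not tested.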
